A study of Mus musculus with 34 samples.

Results

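The genes described here encode part of the machinery that docks and fuses granules in the mast cell (MC): the SNARE proteins Snap23, Vamp3, Vamp7, Vamp8, Stx3 and Stx7, the syntaxin-binding protein Stxbp2 (Munc18-2), the small GTPase Rab27b, its effector Unc13d (Munc13-4) and the synaptotagmin Syt11. They were taken by name from the 25853 gene names in the deposited transcript tables. A row was found for 9 of the 10, and Vamp7 was not analysed here. Single-cell RNA sequencing (mCEL-Seq2, which counts molecules from the 3′ end of the transcript) had been run on MCs sorted from the ear skin of 7-week-old male littermates. The 3 WT mice carried Mcpt5-Cre+/−, Tln1+/+ and the R26LSLYFP reporter, and the 3 Tln1∆MC mice carried Mcpt5-Cre and R26LSLYFP with both Tln1 alleles floxed. Both genotypes therefore expressed Cre from the promoter of the MC protease gene Mcpt5, which switches on the YFP reporter in connective tissue MCs and, in Tln1∆MC mice, deletes the gene of the integrin adaptor talin-1. The cells were sorted as CD45+, lineage-negative and YFP+. A second set of cells came from the ear skin of Myh11-GFP mice, which report the smooth muscle myosin gene Myh11, sorted as CD45− GFP+. According to the paper, it holds vascular smooth muscle cells, some pericytes with low GFP and a small fraction of fibroblasts. Levels in Myh11-GFP cells are those of this mixture. The number of those mice is not given in the sources used here, so the Myh11-GFP cells were treated as 1 sample with no test. The Mcpt5-Cre Tln1 mice and their reporter crosses were on an albino C57BL/6J background and the Myh11-GFP mice on C57BL/6J.

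After cells with 1000 transcripts or fewer were left out, 2477 MCs remained in 30 libraries, with 272 to 934 cells per mouse, and 330 Myh11-GFP cells in 4 libraries. The paper reports fewer MCs at this threshold and left out a small subset with macrophage features. Here all kept YFP+ cells are called MCs. Cells with at least 1% of fibroblast, macrophage and keratinocyte markers made up 12.6% in WT mouse 2 and 1.05% to 6.25% in the other MC mice. Levels are transcripts per 10000 outside the predicted genes named Gm plus a digit, summed over the cells of a mouse. The denominator ranged from 699401 to 5238325 transcripts per mouse and was 1440272 in Myh11-GFP cells. The left-out Gm genes took 14.2% of all transcripts in Tln1∆MC mouse 3 and up to 58.0% in WT mouse 3. Without thinning Syt11 was found in 52.6% of the MCs pooled over the mice (16.2% to 88.8% in the single mice) and 77.0% of Myh11-GFP cells. Since each molecule was counted once, levels were compared between genes without division by gene length. The MC marker list stood at 651 to 887 in the 6 mice and at 0.194 in Myh11-GFP cells, where 6 of its 10 genes, among them Cma1, Mcpt4, Tpsb2 and Fcer1a, had no UMI. Smooth muscle and pericyte markers stood at 96.4 and 121 in Myh11-GFP cells and at no more than 0.154 and 0.332 in any MC mouse, but the fibroblast list was also high in Myh11-GFP cells, at 187. Of the MC mice, WT mice 2 and 3 had the highest fibroblast marker levels (82.7 and 54.1) and WT mouse 2 the highest macrophage marker level (41.6). Tln1, the deleted gene, stood at 4.51, 5.92 and 6.71 for the WT mice and 5.57, 4.33 and 3.63 for the Tln1∆MC mice. The groups overlapped, so the level of this gene did not check the labels.

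As background, an MC stores histamine, proteases and proteoglycan in secretory granules and releases them when surface receptors such as FcεRI are crosslinked. Fusion needs a bundle of SNARE helices formed by an R-SNARE on the granule (Vamp8, Vamp7 or Vamp3) with Q-SNAREs on the target membrane (Snap23 and a syntaxin such as Stx3). Stxbp2 binds syntaxins and guides the assembly, Unc13d primes granules and is recruited by Rab27, and Rab27b tethers granules to the cell cortex. Stx7 works mainly in late endosomes. Syt11 belongs to the synaptotagmins, most of which sense calcium, but Syt11 itself does not bind it.

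MCs expressed Rab27b, Unc13d, Stx3 and Stxbp2 above Myh11-GFP cells by a factor of 7.65 or more, while Snap23, Vamp3 and Stx7 had overlapping ranges in both and Syt11 was higher in Myh11-GFP cells than in 5 of 6 MC mice. The mean level over the 6 mice was 128 times the Myh11-GFP level for Rab27b, 70.2 times for Unc13d, 24.5 times for Stx3, 7.65 times for Stxbp2 and 2.23 times for Vamp8. Snap23 stood at 1.54 times, Vamp3 at 1.13 times and Stx7 at 0.952 times. All 6 mice lay above all 4 Myh11-GFP libraries for 5 of the 9 members (Vamp8, Stx3, Stxbp2, Rab27b and Unc13d), against 23.9% of the 8601 genes tested. No member had all 6 mice below the 4 libraries, against 12.7% of genes, and the other 4 members overlapped. With the Gm genes counted in the total, the Vamp3 ratio crossed 1, from 1.13 to 0.778, Snap23 came to 1.08, and Vamp8, at 1.59, overlapped, which left 4 members.

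**Figure D1:**
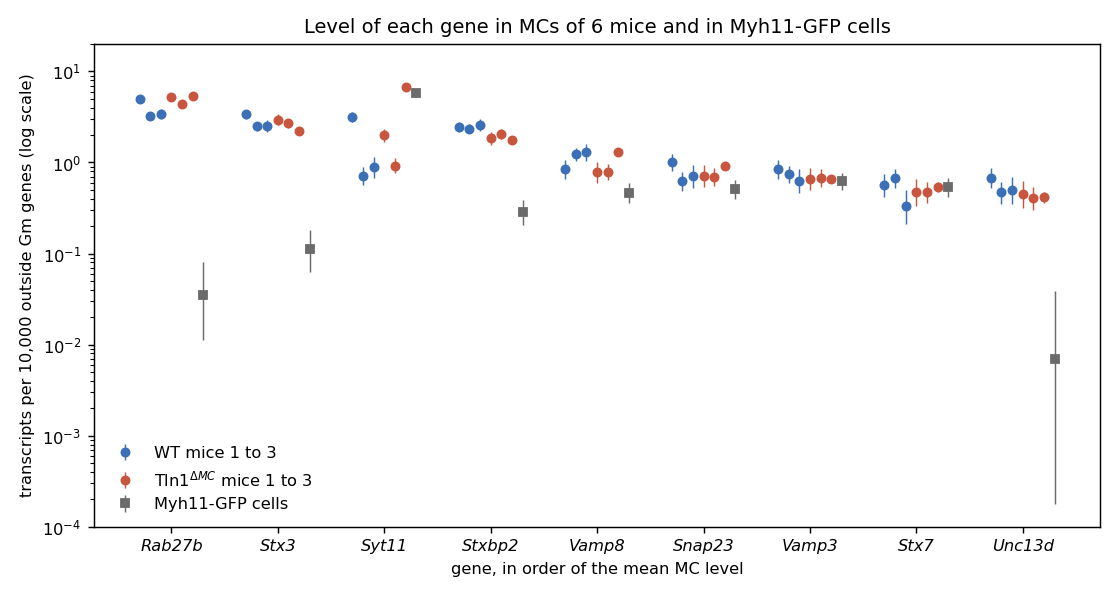
Level of each member per 10000 transcripts outside Gm genes (log axis) in the 3 WT mice, the 3 Tln1∆MC mice and the Myh11-GFP cells, with exact 95% Poisson intervals that cover counting error only. Rab27b lies between 3.25 and 5.39 in the MC mice and at 0.0347 in Myh11-GFP cells, while the intervals of the Myh11-GFP cells overlap those of MC mice for Snap23, Vamp3 and Stx7.

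The syntaxins and their binding protein are described first. Stx3, a plasma membrane and granule syntaxin, maps in the GRCm38 annotation to chromosome 19 from 11775118 to 11819403 on the minus strand. Its level was 3.39, 2.49 and 2.53 for WT littermates 1 to 3 and 2.96, 2.71 and 2.22 for Tln1∆MC littermates 1 to 3. It was 0.111 in Myh11-GFP cells (exact 95% Poisson interval 0.0635 to 0.180, 16 UMIs). Every MC mouse was thus more than an order of magnitude above the Myh11-GFP cells, and the ratio of the means ran from 15.1 to 42.8 over the counting interval. Stxbp2 (chromosome 8 from 3630955 to 3643644 on the plus strand), which pairs with Stx3, had a level of 2.46, 2.35 and 2.57 for WT littermates 1 to 3 and 1.86, 2.07 and 1.76 for Tln1∆MC littermates 1 to 3. It was 0.285 in Myh11-GFP cells (exact 95% Poisson interval 0.204 to 0.386, 41 UMIs). Each of the 6 mice was several times above the highest of the 4 Myh11-GFP libraries (0.406). Stx7, the endosomal syntaxin (chromosome 10 from 24149302 to 24190222 on the plus strand), had a level of 0.566, 0.671 and 0.329 for WT littermates 1 to 3 and 0.474, 0.475 and 0.539 for Tln1∆MC littermates 1 to 3. It was 0.535 in Myh11-GFP cells (exact 95% Poisson interval 0.422 to 0.668, 77 UMIs), inside the range of the mice. In cells thinned to 1000 UMIs, which left out 282 MCs and 23 Myh11-GFP cells that were shallower, a Stx3 UMI was found in 536 of 2195 (24.4%, exact 95% binomial interval 22.6% to 26.3%) MCs and 3 of 307 (0.977%, exact 95% binomial interval 0.202% to 2.83%) Myh11-GFP cells. Stxbp2 was found in 18.5% and 1.30%, and Stx7 in 4.42% and 7.17%. Here and below, shares of MCs pool the cells of the 6 mice, of which Tln1∆MC mouse 3 gave 923 after thinning. Their intervals do not cover the spread between mice. Without thinning the shares were higher, for Stxbp2 48.3% and 10.9%, for Stx7 16.6% and 21.5% and for Stx3 52.5% of MCs and 4.55% of Myh11-GFP cells, at median depths of 3295 and 3904.5 UMIs outside Gm genes.

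A promoter window was held for 6 of the 10 members. Syt11 was higher in Myh11-GFP cells than in every MC mouse except Tln1∆MC mouse 3. Its window is shown next to those of Stx3 and Stxbp2, a syntaxin and its partner that were both higher in MCs. Each holds 250 bases before and 50 bases after the RefSeq start site of build GRCm38.p6, read 5′ to 3′ on the gene's strand: Stx3 at chr19:11819354-11819653 on the minus strand, Stxbp2 at chr8:3630859-3631158 on the plus strand and Syt11 at chr3:88772550-88772849 on the minus strand. Capitals mark a motif match.
Stx3: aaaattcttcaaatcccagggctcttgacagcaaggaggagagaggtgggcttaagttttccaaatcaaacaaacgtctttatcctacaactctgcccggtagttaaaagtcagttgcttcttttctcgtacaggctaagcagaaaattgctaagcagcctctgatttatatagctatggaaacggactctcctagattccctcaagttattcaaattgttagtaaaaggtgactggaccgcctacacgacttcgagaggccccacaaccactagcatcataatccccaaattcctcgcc
Stxbp2: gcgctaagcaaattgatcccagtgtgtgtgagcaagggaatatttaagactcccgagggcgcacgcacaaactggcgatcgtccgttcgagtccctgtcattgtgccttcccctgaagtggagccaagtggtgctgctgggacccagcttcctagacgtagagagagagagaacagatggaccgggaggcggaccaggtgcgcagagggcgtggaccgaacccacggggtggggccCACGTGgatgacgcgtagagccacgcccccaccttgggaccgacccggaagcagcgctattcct
Syt11: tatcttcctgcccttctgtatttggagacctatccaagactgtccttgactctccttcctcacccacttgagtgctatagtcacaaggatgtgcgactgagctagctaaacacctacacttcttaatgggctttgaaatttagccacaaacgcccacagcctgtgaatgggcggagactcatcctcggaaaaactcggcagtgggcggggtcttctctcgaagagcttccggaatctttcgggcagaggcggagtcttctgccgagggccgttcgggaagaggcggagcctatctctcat
The motifs searched on both strands were AGATAA, bound by GATA factors, the E-box CACGTG, bound by basic helix-loop-helix factors such as Mitf, and the CArG box of serum response factor. The only match in these windows was the E-box of Stxbp2, which begins 14 bases before the start site. CACGTG was present in 7.15% of the 32817 RefSeq windows of this length, AGATAA in 11.2% and the CArG box in 1.63%. The GC content was 44% for Stx3, 61.3% for Stxbp2 and 53% for Syt11, with 8, 22 and 14 CpG dinucleotides. The RefSeq start sites of Syt11 and Stxbp2 lie inside the spans given for these genes elsewhere in this section, which come from another annotation. The E-box of Stxbp2, placed from the RefSeq start site, therefore also lies inside the span of that gene.

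The remaining SNAREs were low in both MCs and Myh11-GFP cells. Vamp8, the granule R-SNARE (chromosome 6 from 72385223 to 72390703 on the minus strand), had a level of 0.844, 1.23 and 1.30 for WT littermates 1 to 3 and 0.782, 0.790 and 1.29 for Tln1∆MC littermates 1 to 3. It was 0.465 in Myh11-GFP cells (exact 95% Poisson interval 0.361 to 0.591, 67 UMIs). The lowest MC mouse, at 0.782, was above the highest Myh11-GFP library, at 0.606. Snap23, the Q-SNARE that stands in for neuronal Snap25 outside neurons (chromosome 2 from 120567671 to 120601255 on the plus strand), had a level of 1.01, 0.619 and 0.715 for WT littermates 1 to 3 and 0.718, 0.696 and 0.920 for Tln1∆MC littermates 1 to 3. It was 0.507 in Myh11-GFP cells (exact 95% Poisson interval 0.397 to 0.637, 73 UMIs), and the highest Myh11-GFP library (0.677) reached into the MC range. Vamp3, the R-SNARE of recycling endosomes (chromosome 4 from 151047300 to 151057963 on the minus strand), had a level of 0.844, 0.75 and 0.629 for WT littermates 1 to 3 and 0.667, 0.679 and 0.659 for Tln1∆MC littermates 1 to 3. It was 0.625 in Myh11-GFP cells (exact 95% Poisson interval 0.503 to 0.768, 90 UMIs). The 6 MC mice lay close together for Vamp3 and the Myh11-GFP cells as a whole were just below the lowest, with the highest library, at 0.664, inside their range. Vamp3 overlaps Camta1 on the same strand in the annotation, so reads from the shared part may belong to either gene. In thinned cells a UMI was found in 9.75% of MCs and 3.26% of Myh11-GFP cells for Vamp8, 8.61% and 5.54% for Snap23, and 6.24% and 6.51% for Vamp3. Without thinning these shares were 30.0% and 15.2%, 25.8% and 19.1%, and 20.4% and 22.7%.

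Rab27b was the member with the highest mean level in MCs and one of the 2 that were close to absent from Myh11-GFP cells. It maps to chromosome 18 from 69979131 to 70141605 on the minus strand. Its level was 4.94, 3.25 and 3.42 for WT littermates 1 to 3 and 5.30, 4.40 and 5.39 for Tln1∆MC littermates 1 to 3. It was 0.0347 in Myh11-GFP cells (exact 95% Poisson interval 0.0113 to 0.0810, 5 UMIs). The ratio of the means ran from 54.9 to 395 over that counting interval. Of the 5 Myh11-GFP UMIs 3 lay in 1 library, and without it the ratio of 128 became 214. In thinned cells a Rab27b UMI was found in 837 of 2195 (38.1%, exact 95% binomial interval 36.1% to 40.2%) MCs, with 29.1% to 43.9% in the single mice. It was found in 0 of 307 Myh11-GFP cells. The exact 95% upper limit for cells with a UMI at this depth was 1.19%, which sets no limit on cells that express the gene. Without thinning the shares were 67.3% of MCs and 1.52% of Myh11-GFP cells.

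Unc13d, the priming factor that binds Rab27 (chromosome 11 from 116062095 to 116077961 on the minus strand), was the lowest member in MCs. Its level was 0.682, 0.471 and 0.500 for WT littermates 1 to 3 and 0.449, 0.407 and 0.416 for Tln1∆MC littermates 1 to 3. Myh11-GFP cells held 1 UMI, a level of 0.00694. The ratio of 70.2 therefore has a wide counting interval, 12.6 to 2773. In thinned cells a Unc13d UMI was found in 111 of 2195 (5.06%, exact 95% binomial interval 4.18% to 6.06%) MCs and in 0 of 307 Myh11-GFP cells. The exact 95% upper limit for cells with a UMI at this depth was 1.19%, which sets no limit on cells that express the gene. Without thinning the shares were 15.1% and 0.303%. Rab27b and Unc13d, the GTPase and its effector, each had all 6 MC mice above the 4 Myh11-GFP libraries.

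Syt11 (chromosome 3 from 88744700 to 88775164 on the minus strand) was higher in Myh11-GFP cells than in 5 of the 6 MC mice. Its level was 3.18, 0.715 and 0.887 for WT littermates 1 to 3 and 1.99, 0.925 and 6.67 for Tln1∆MC littermates 1 to 3. It was 5.77 in Myh11-GFP cells (exact 95% Poisson interval 5.39 to 6.18, 831 UMIs). Tln1∆MC mouse 3 alone exceeded the Myh11-GFP cells, and the other 5 mice were below it. The Myh11-GFP level was 2.41 times the mean of the 6 mice, with 4.22, 4.6, 7.52 and 8.08 in the 4 libraries. The 10 libraries of Tln1∆MC mouse 3 ranged from 1.99 to 12.5, so the high level was not that of 1 library. In thinned cells a Syt11 UMI was found in 638 of 2195 (29.1%, exact 95% binomial interval 27.2% to 31.0%) MCs and 131 of 307 (42.7%, exact 95% binomial interval 37.1% to 48.4%) Myh11-GFP cells. The share was 49.0% in Tln1∆MC mouse 3, which gave 923 of the 2195 MCs, and 4.59% to 28.9% in the other 5 mice. The interval for the pooled MCs does not cover this spread between mice. Without thinning Syt11 was found in 52.6% of the pooled MCs, with 16.2% to 88.8% in the single mice, and in 77.0% of Myh11-GFP cells.

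The Syt11 level moved with a grouping of the mice that is not the genotype. In each library the set of barcodes that was not in use still carried some transcripts. The share of each such barcode in their total per library was averaged over the libraries of a mouse and put on a log scale. These shares correlated at 0.979 to 0.986 between mice of one group and at no more than 0.113 between mice of different groups. WT mouse 1 and Tln1∆MC mouse 1 formed group A, WT mice 2 and 3 and Tln1∆MC mouse 2 formed group B, and Tln1∆MC mouse 3 formed group C alone. The labels do not say what the groups are. Syt11 ranged from 0.774 to 4.09 (median 2.65) over the libraries of group A, from 0.407 to 1.15 (median 0.938) in group B and from 1.99 to 12.5 (median 7.83) in group C. For Rab27b the medians of the 3 groups were 4.98, 3.88 and 5.70. In Tln1∆MC mouse 3 fibroblast, pericyte and smooth muscle markers stood at 0.976, 0.0439 and 0.0611, while the keratinocyte list was at 24.8. The MC library with the highest keratinocyte level (134) was from that mouse, and its Syt11 level, 1.99, was the lowest there. Without cells with at least 1% of fibroblast, macrophage and keratinocyte markers, Syt11 in Tln1∆MC mouse 3 was 7.12. The part of other cells in its Syt11 level was not tested. Group C and the deletion in that mouse cannot be told apart for Syt11.

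**Figure D2:**
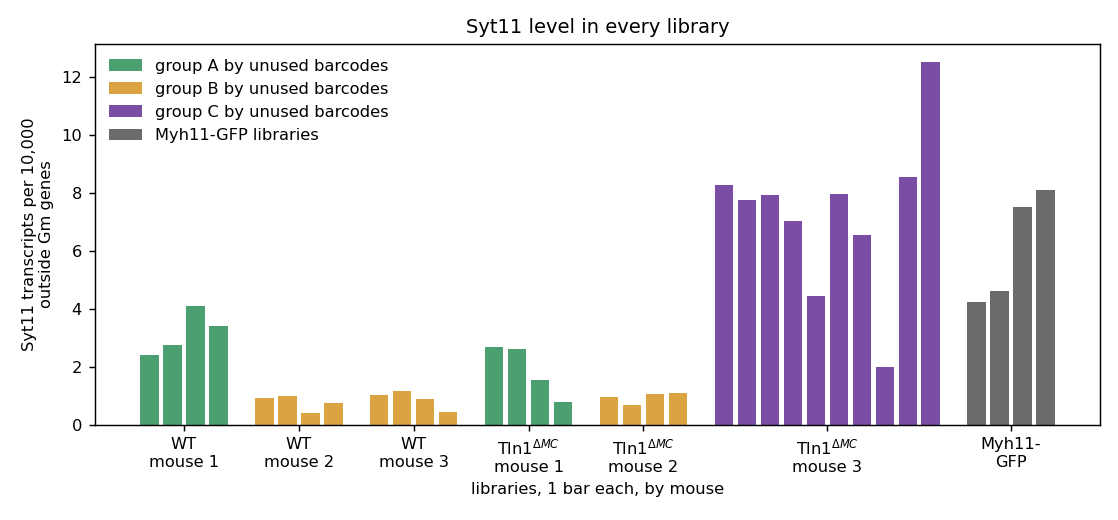
Syt11 level per 10000 transcripts outside Gm genes in each of the 30 MC libraries and 4 Myh11-GFP libraries (1 bar per library), coloured by the group of the unused barcodes. Group B stays between 0.407 and 1.15, and the 10 libraries of Tln1∆MC mouse 3 spread up to 12.5.

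Within MCs the members fell into an order by their mean level over the 6 mice: Rab27b (4.45), Stx3 (2.72), Syt11 (2.39), Stxbp2 (2.18), Vamp8 (1.04), Snap23 (0.779), Vamp3 (0.705), Stx7 (0.509) and Unc13d (0.488). Rab27b above Stx3, Stxbp2 above Vamp8 and Vamp3 above Stx7 held in 6 of 6 mice. Stx3 above Syt11, Vamp8 above Snap23 and Snap23 above Vamp3 held in 5 of 6, Stx7 above Unc13d in 4 of 6 and Syt11 above Stxbp2 in 3 of 6. These neighbours did not keep the same order in all mice, and the differences between neighbours were not tested. At 1000 UMIs per cell, at least 1 member was seen in 80.1% of MCs and 56.7% of Myh11-GFP cells, and at least 3 members in 15.0% and 0.326%.

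Neither the members nor any other gene passed the test for a difference between the genotypes. In a limma fit of log2 levels per mouse (8601 genes, adjusted by Benjamini-Hochberg), 0 genes were called (0.0%), 497 had an unadjusted p under 0.05 and the smallest adjusted p was 0.422. Of the 9 members 0 were called and 0 had an unadjusted p under 0.05. The mean level was lower in Tln1∆MC mice for 7 members and higher for 2, and the median log2 difference was −0.09 over the members and −0.03 over all genes. The 3 Tln1∆MC mice lay below the 3 WT mice for 2 of 9 members, Stxbp2 and Unc13d, against 6.31% of all genes, and above them for 0 of 9, against 5.34%.

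Stxbp2 had a level of 2.46 ± 0.110 for WT and 1.90 ± 0.161 for Tln1∆MC (mean ± SD, n = 3 mice per genotype), a log2 difference of −0.38 (SE 0.174, adjusted p = 0.863 by limma). Unc13d had 0.551 ± 0.114 for WT and 0.424 ± 0.0217 for Tln1∆MC (mean ± SD, n = 3 mice per genotype), a log2 difference of −0.35 (SE 0.226, adjusted p = 0.871 by limma). Both reached the smallest p that 3 mice against 3 allow in an exact two-sided permutation test, 0.1, so that test could not pass 0.05. Stxbp2 was different between Tln1∆MC and WT mice by −0.603 level units in group A and −0.392 in group B, and Unc13d by −0.233 and −0.0781, while group C had no WT mouse. The WT mice also had the higher levels of fibroblast markers (20.1 to 82.7, against 0.976 to 10.5 in Tln1∆MC mice). Without the cells that had at least 1% of transcripts from fibroblast, macrophage and keratinocyte markers (83 cells), Stxbp2 was 2.52, 2.72 and 2.76 in WT and 1.87, 2.08 and 1.84 in Tln1∆MC mice, and Unc13d 0.721, 0.565 and 0.555 and 0.454, 0.410 and 0.452, so the groups stayed apart. With all cells the gap for Unc13d was small, between 0.471 in WT mouse 2 and 0.449 in Tln1∆MC mouse 1. The libraries of WT mouse 2 alone ranged from 0.288 to 0.791.

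Rab27b and Syt11 had the largest positive differences. Rab27b stood at 3.87 ± 0.928 for WT and 5.03 ± 0.547 for Tln1∆MC (mean ± SD, n = 3 mice per genotype), a log2 difference of 0.40 (SE 0.211, adjusted p = 0.867 by limma), and the highest WT mouse overlapped the Tln1∆MC range. The difference was 0.360 level units in group A and 1.06 in group B. Syt11 stood at 1.59 ± 1.38 for WT and 3.19 ± 3.06 for Tln1∆MC (mean ± SD, n = 3 mice per genotype), a log2 difference of 0.86 (SE 0.695, adjusted p = 0.885 by limma), with SDs close to the means. Within group A the Syt11 difference was −1.19 level units and within group B 0.125, so it did not keep its direction. With the group as a block in the fit the Syt11 log2 difference was −0.17. The remaining 5 members had log2 differences between −0.25 (Vamp8) and 0.02 (Snap23), each with overlapping groups.

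**Figure D3:**
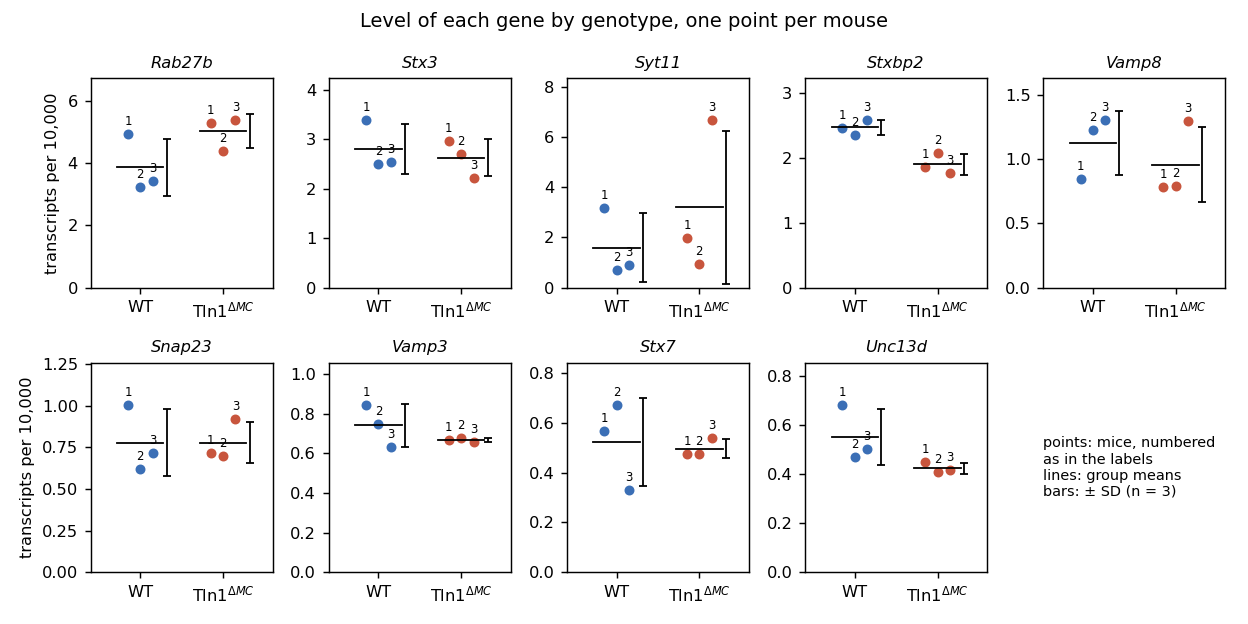
Level of each member per 10000 transcripts outside Gm genes in the 3 WT and 3 Tln1∆MC mice (points, with the mouse number), with the mean (line) and SD (bar, n = 3) of each genotype. Stxbp2 and Unc13d are the only members whose groups do not overlap, and the Syt11 mean of the Tln1∆MC mice includes mouse 3 at 6.67.

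To ask whether the members vary with the state of the MC, the cells of each mouse were split at the median of a score into high cells and low cells, and the summed levels of both were compared over the 6 mice with limma. The scores are ranges and not cell types. The first summed 9 immediate early genes (Fos, Fosb, Jun, Junb, Egr1, Ier2, Dusp1, Atf3 and Zfp36), which rise within minutes of stimulation or tissue handling, and 20 to 69 cells of a mouse lay within 10% of the median. Between high and low cells 396 of 8590 genes were called (4.61%), 214 higher and 182 lower in the high cells, and 0 of 9 members. The median log2 difference was −0.04 over the members and −0.04 over all genes. Vamp3 came nearest (log2 difference −0.31, SE 0.160, adjusted p = 0.309), with 0.840, 0.769, 0.385, 0.641, 0.614 and 0.556 in the high cells of WT mice 1 to 3 and Tln1∆MC mice 1 to 3 and 0.848, 0.736, 0.826, 0.704, 0.751 and 0.738 in the low cells. It was lower in the high cells of 5 of 6 mice. Rab27b (mean 4.39 ± 0.840 and 4.55 ± 1.08, SD, n = 6 mice) and Stx3 (2.69 ± 0.303 and 2.79 ± 0.596) were nearly level between them.

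The second score summed the granule protease genes Cpa3, Cma1, Mcpt4 and Tpsb2, with 60 to 242 cells of a mouse within 10% of the median. Here 611 of 8596 genes were called (7.11%), 259 higher and 352 lower in the protease-high cells, and again 0 of 9 members, with 4 members at an unadjusted p under 0.05 and a median log2 difference of 0.13 over the members and 0.04 over all genes. Rab27b was 5.05, 4.05, 4.15, 4.83, 4.65 and 6.25 in the protease-high cells and 4.72, 2.53, 2.68, 5.86, 3.99 and 4.48 in the protease-low cells of WT mice 1 to 3 and Tln1∆MC mice 1 to 3 (log2 difference 0.30, SE 0.123, adjusted p = 0.150 by limma). It was higher in the protease-high cells of 5 of 6 mice. Unc13d was 0.744, 0.696, 0.483, 0.508, 0.450 and 0.430 and 0.565, 0.266, 0.518, 0.348, 0.338 and 0.402 (log2 difference 0.45, SE 0.196, adjusted p = 0.187), higher in 5 of 6. Vamp8 was 1.01, 1.23, 1.39, 0.762, 0.940 and 1.45 and 0.532, 1.23, 1.21, 0.811, 0.540 and 1.13 (log2 difference 0.36, SE 0.155, adjusted p = 0.178), higher in 4 of 6. Syt11 went the other way, at 2.34, 0.897, 0.682, 1.52, 0.640 and 6.67 in the protease-high and 4.75, 0.549, 1.09, 2.58, 1.40 and 6.67 in the protease-low cells (log2 difference −0.48, SE 0.194, adjusted p = 0.153), and was lower in 5 of 6 mice, in Tln1∆MC mouse 3 by less than the digits shown. Vamp3 was higher in the protease-high cells of 6 of 6 mice without passing the test (log2 difference 0.20, SE 0.140, adjusted p = 0.442).

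When only the upper and the lower tertile of cells by protease score were compared, Rab27b (log2 difference 0.53, adjusted p = 0.0387) and Unc13d (0.81, adjusted p = 0.033) passed the limma test. Rab27b also passed without Tln1∆MC mouse 1 (0.42, adjusted p = 0.0447), and Syt11 without WT mouse 2 (−0.71, adjusted p = 0.0128) or without the cells with at least 1% of other markers (−0.57, adjusted p = 0.035). Tln1∆MC mouse 1 was the only mouse with less Rab27b in the protease-high cells, and WT mouse 2 the only one with more Syt11 there. Leaving out the mouse that went the other way favours a pass, so these passes add no evidence. Rab27b and Syt11 were each called under 2 of 16 alternatives and Unc13d under 1 of 16. Fibroblast and macrophage markers were higher in the protease-low cells of 6 of 6 mice. In WT mouse 2 the fibroblast markers stood at 153 in the protease-low and 5.79 in the protease-high cells and the macrophage markers at 71.0 and 9.25, and in Tln1∆MC mouse 3 the keratinocyte markers stood at 49.3 and 1.78. The Gm share was also higher in the protease-low cells of each mouse. For Rab27b and Unc13d without the cells with other markers the log2 differences were 0.10 and 0.26. In cells thinned to 1000 UMIs they were 0.0088 (adjusted p = 0.971) for Rab27b and 0.38 for Unc13d, so the Rab27b difference was lost there. The part of the Gm share in the differences was not tested. The difference between high and low cells did not pass the test of an interaction with the genotype for any member.

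**Figure D4:**
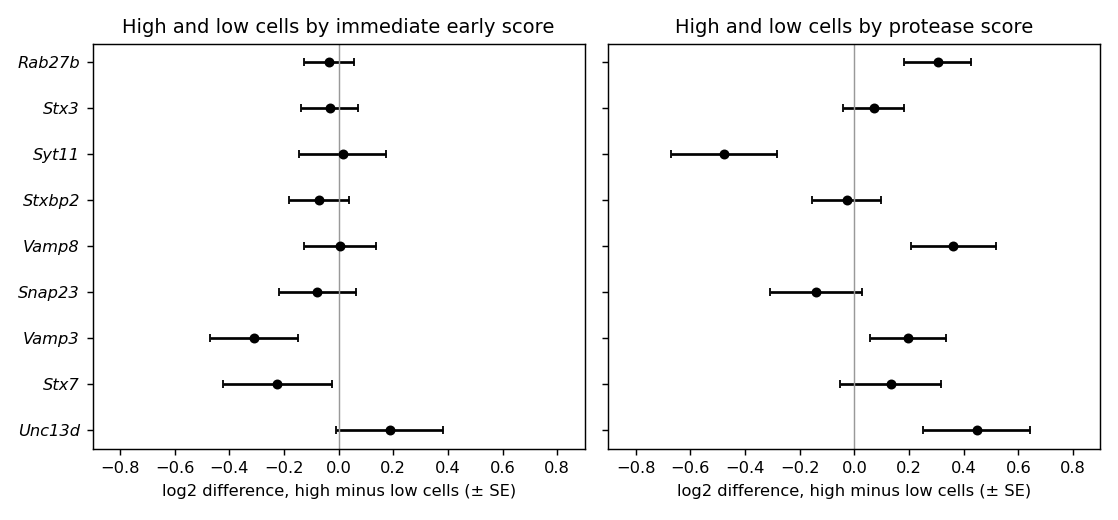
Difference of each member between the high and the low cells of the 6 MC mice on the log2 scale (points, ± SE from limma), by the immediate early score on the left and by the protease score on the right. By the protease score Rab27b (0.30), Vamp8 (0.36) and Unc13d (0.45) lie above 0 and Syt11 (−0.48) below it by more than 2 SE.

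The wider exocytosis machinery was read from 7 lists with 115 genes, of which 112 had a row and 65 were tested. Over these 65 genes, 26 had all 6 MC mice above the 4 Myh11-GFP libraries (23.9% of all genes did), 5 had them below (12.7% of all genes) and 34 overlapped. The genes with all MC mice above numbered 10 of 14 secretory Rabs and effectors, 4 of 7 R-SNAREs, 4 of 8 exocyst subunits, 4 of 20 Q-SNAREs, 2 of 3 extended synaptotagmins, 1 of 12 SM proteins, recycling factors and complexins, and the 1 priming factor tested. The extended synaptotagmins Esyt1 and Esyt3 lay above and Esyt2 overlapped. They were the only genes of the synaptotagmin and Doc2 list with enough transcripts to be tested. For the genotype 0 of 65 were called, with a median log2 difference of −0.07. Sytl3, a synaptotagmin-like protein that binds Rab27, had a level of 5.21, 5.33 and 6.12 for WT littermates 1 to 3 and 6.84, 7.31 and 5.40 for Tln1∆MC littermates 1 to 3 and no UMI in Myh11-GFP cells, at least 290-fold higher against a floor of 3 counts over that group. It was above every member in the mean of the 6 mice (6.04). Rab44, a large Rab of immune cells, ranged from 2.00 to 3.57 with no UMI in Myh11-GFP cells, at least 133-fold higher. Rab32, a Rab of lysosome-related organelles, ranged from 1.62 to 2.64 and had 3 UMIs in Myh11-GFP cells, a ratio of 104 with a counting interval of 35.6 to 504. Sytl2, another Rab27 effector, was the reverse, with a mean of 0.0207 in MCs and 0.938 in Myh11-GFP cells. Rab12 (0.260 and 1.07) and Syt3 (0.0167 and 0.0625) also had low ratios, with overlapping ranges for Syt3.

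**Figure D5:**
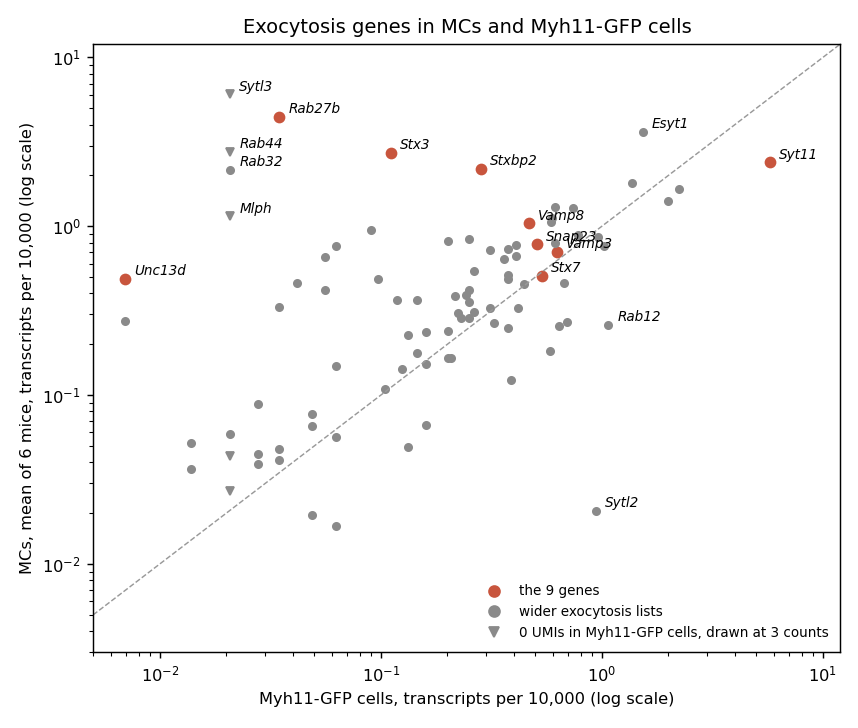
Mean level over the 6 MC mice (y axis) against the level in Myh11-GFP cells (x axis) for the members and the genes of the wider lists, per 10000 transcripts outside Gm genes, on log axes, for genes with at least 20 UMIs in all. Triangles mark genes with 0 UMIs in Myh11-GFP cells, drawn at the floor of 3 counts, and the dashed line marks equal levels. Sytl3 and Rab44 have no UMI in Myh11-GFP cells and Sytl2 lies far below the diagonal.

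Among the other SNAREs, the 2 highest Q-SNAREs were the plasma membrane syntaxin Stx4a (mean 1.12 in MCs, 0.597 in Myh11-GFP cells) and the Golgi syntaxin Stx5a (0.790 and 0.611), and the 2 highest R-SNAREs were Vamp2 (1.30 and 0.611) and Ykt6 (0.865 and 0.958). Stx3, at 2.72, was above all other syntaxins of these lists in MCs. Of the SNARE recycling genes, Napa (α-SNAP) had a mean of 1.80 and the complexin Cplx2 0.814, with Cplx2 spread from 0.254 to 1.80 over the mice. The priming factor Unc13b (0.660) was at a level close to that of its relative Unc13d, and 11.9 times its level in Myh11-GFP cells. Cadps2 was near the floor (0.0584). The extended synaptotagmins Esyt1 (3.63 and 1.53) and Esyt2 (1.40 and 1.99) and the exocyst subunits Exoc5 (1.28 and 0.736) and Exoc4 (0.635 and 0.361) were within a factor of 2.37 between MCs and Myh11-GFP cells.

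By the immediate early score 3 of the 65 genes were called, against 4.61% of all genes, with a median log2 difference of −0.13 over the 65. Of these 1 was higher (Esyt3, log2 difference 1.18, adjusted p = 0.0346) and 2 were lower in the high cells, the SNARE Stx11 (log2 difference −0.70, adjusted p = 0.0145) and Sytl3 (log2 difference −0.42, adjusted p = 0.0145), by limma. Stx11 stood at 0.441, 0.512, 0.770, 0.499, 0.420 and 0.548 in the high and 0.514, 1.21, 1.08, 0.957, 0.787 and 0.758 in the low cells of WT mice 1 to 3 and Tln1∆MC mice 1 to 3. Each mouse had the lower value in the high cells. Beside this, in WT mouse 2 the fibroblast markers stood at 134 in the low and 7.97 in the high cells. By the protease score 6 of 65 were called, against 7.11% of all genes, with a median of 0.13. Of these 5 were higher and 1 was lower: Rab37, a Rab of secretory granules (log2 difference 1.02, adjusted p = 0.00295), the Rab27 effector Mlph (log2 difference 0.52, adjusted p = 0.0236), Esyt1 (log2 difference 0.46, adjusted p = 0.0250), Exoc1 (log2 difference 0.96, adjusted p = 0.0473) and Exoc2 (log2 difference 0.73, adjusted p = 0.0452) were higher, and Stxbp6, a SNARE-binding protein, was lower (log2 difference −1.03, adjusted p = 0.0144), by limma. Rab37 stood at 1.22, 1.32, 1.48, 0.762, 1.31 and 1.28 in the protease-high and 0.598, 0.466, 0.691, 0.522, 0.450 and 0.933 in the protease-low cells, so it was higher in 6 of 6 mice. All 9 called genes had the same direction in 6 of 6 mice. Apart from Sytl3 and Esyt1, these genes were named after their values were seen. Rab37 stayed called under 15 of 16 alternatives, Stx11 under 13 of 16, Sytl3 under 12 of 16, Stxbp6 under 11 of 16, Esyt1 and Mlph under 10 of 16, Esyt3 and Exoc1 under 7 of 15 and Exoc2 under 5 of 16. The call was lost without WT mouse 2 for Stx11, without WT mouse 1, WT mouse 3 or Tln1∆MC mouse 2 for Sytl3 and Stxbp6, without WT mouse 1, Tln1∆MC mouse 3 or 1 other mouse for Esyt1 and Mlph, and without WT mouse 1, WT mouse 3, Tln1∆MC mouse 1 or Tln1∆MC mouse 3 for Esyt3. Exoc1 lost it without each mouse in turn and Exoc2 without each mouse other than Tln1∆MC mouse 1. In cells thinned to 1000 UMIs Stx11, Rab37 (adjusted p = 0.0538 by limma), Stxbp6, Esyt1, Mlph and Exoc2 were no longer called, while Sytl3 was. The protease-low cells of each mouse were shallower than its protease-high cells. Their median transcripts outside Gm genes were 1178 to 4145, against 2001 to 5398. The part of depth in these calls was not tested. Without the cells with at least 1% of other markers, Esyt3 (adjusted p = 0.0504), Esyt1 (0.163), Exoc2 (0.0701) and Mlph (0.127) were no longer called. Rab37, Stxbp6 and Exoc1 stayed called there, as did Stx11 (log2 difference −0.81, adjusted p = 0.0024 by limma) and Sytl3 (−0.57, adjusted p = 1.4e-04).

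The genes whose level was most like that of the 3 members with the most UMIs were read from the 30 MC libraries, as a Pearson correlation over 1631 genes with a mean level of at least 1. The libraries share mice, depth and barcode group, so these are descriptions without a test. Rab27b was most like Msn (r = 0.83, 0.78 within mice), Rgs18 (r = 0.82, 0.81 within mice) and Osbpl8 (r = 0.81, 0.67 within mice). Msn encodes moesin, which links actin to the membrane, and Rgs18 a regulator of G protein signalling. Syt11 was most like Msn (r = 0.89, 0.51 within mice), RP23-271M19.2 (r = 0.88, 0.62 within mice) and Gadd45b (r = 0.87, 0.80 within mice), of which RP23-271M19.2 is a gene model named for its clone. Gadd45b encodes a stress-response protein. Stx3 was most like Cd200r3 (r = 0.80, 0.66 within mice), Cadm1 (r = 0.79, 0.63 within mice) and Cpa3 (r = 0.77, 0.69 within mice), and Cpa3 encodes the MC carboxypeptidase. Rgs18 and Cd200r3 had no UMI in Myh11-GFP cells, whereas Gadd45b had a mean level of 2.89 in MCs and 11.7 in Myh11-GFP cells.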

How the data were processed

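MCs of 3 WT and 3 Tln1∆MC mice and Myh11-GFP cells were profiled by mCEL-Seq2. The authors deposited 34 tables of transcript numbers per gene and barcode, a unit that is neither a whole-number count nor a normalized level. Per the paper's methods, reads were aligned to mm10 gene models with BWA 0.6.2-r126 (the submitters' processing notes also name bcl2fastq 2.17.1.14), only sense, uniquely mapped reads were kept, and UMIs of 6 bases were turned into transcripts by binomial statistics. The UMI numbers were recovered here by undoing that step.

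Barcodes with over 1000 transcripts were kept as cells (the study's limit of 2% Kcnq1ot1 removed 0). Doublets had been gated out at the sort and no caller was run. The libraries share barcodes by design (2 sets of 96), and 17 kept cells carried barcodes of the set not in use. Libraries were joined by the mouse number in the titles, and transcripts were summed per mouse outside Gm genes. A gene was tested, if 3 mice or more each held 10 or more of its transcripts, on log2 of transcripts per 1000000 plus 1 with limma 3.58.1 in R 4.3.3 (trend, Benjamini-Hochberg, threshold 0.05), with the mouse as a block for high against low cells. This scale understates changes of low genes. The code was tested on simulated data. The labels do not state that the numbers are separate animals, and if they are not, p-values measure technical spread. Exact 95% intervals (scipy 1.17.1) and floors of 3 counts cover counting error only, on 699401 to 5238325 transcripts per mouse.

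The members, lists and tests were chosen with earlier results of these data known. Named beside the members were, in each wider list, the 2 genes with the highest mean level in MCs, over all lists the 3 highest and 3 lowest ratios to Myh11-GFP cells among genes with at least 20 transcripts, and the 3 genes most like each of the 3 members with most UMIs (log2 of level plus 0.1). Alternatives were other totals and factors, UMIs, filters on genes and cells, thinning, tertiles, blocks and leaving out each mouse or a library. Leaving out cells with 1% of other markers or barcodes not in use, and, for the scores, the library with most macrophage transcripts, was chosen after seeing the data.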

Additional observations from a re-analysis of the deposited data

Results flagged for a closer look

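In the 4 Myh11-GFP libraries, Unc13d had a level of 0.02655 per 10000 transcripts in 1 library, which holds the only UMI, and 0 in the others, so that 1 library stood apart. A single UMI sets its library apart whichever library it falls in, so the usual rate of about 1 in 20 groups by chance does not apply here.

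Members were also seen in barcodes that the comparisons did not use. In MC libraries, 351 UMIs of members lay in 2871 barcodes of the set not in use with 1000 transcripts or fewer, 11.6 per 10000 UMIs outside Gm genes, with Rab27b at 3.36, Stx3 at 2.77 and Syt11 at 0.791. A further 238 UMIs lay in 412 barcodes of the set in use with 1000 transcripts or fewer, 15.6 per 10000. In Myh11-GFP libraries the same kinds of barcode held 10 and 14 UMIs of members, none of them Rab27b.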

How the results depend on the processing

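All log2 differences are Tln1∆MC against WT, or high against low cells of a score. No paired use of the mouse numbers was justified: deviations of same-numbered mice from their group means correlated at 0.16, −0.21 and −0.27, WT mouse 2 correlated best with Tln1∆MC mouse 3 (0.42), and with the replicate number as a block 0 genes were called between the genotypes and 409 had an unadjusted p under 0.05. The planned edgeR alternative was not run, since the deposited values are not counts. The number of members above Myh11-GFP cells in all 6 mice, 5, was 4 with Gm genes in the total (without Vamp8), 6 without WT mouse 2 or without 1 of the Myh11-GFP libraries (with Snap23), and 5 under the other 11 alternatives. Genes called between the genotypes numbered 44 with Gm genes in the total (3 higher, 41 lower, with the median of all genes moved to 0.19), 4 with the barcode group as a block and 0 to 15 without single mice, 15 without Tln1∆MC mouse 1. No member was called under any of these. By the immediate early score 153 genes were called with no filter on low genes, 235 with cells over 2000 transcripts and 133 with cells thinned to 1000 UMIs, and by the protease score 116 with no filter, 118 thinned and 234 to 501 without single mice, 234 without WT mouse 1 and 321 without WT mouse 3. Thinning and a higher threshold leave fewer transcripts or cells, the filter changes how many genes are tested, and for the other shifts the cause was not tested.

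Members whose difference was near 0 changed direction under some settings. Between the genotypes this was so for Snap23 with the barcode group as a block (−0.17), without the library with most macrophage transcripts (−0.078) and without cells with 1% of other markers (−0.025), for Vamp3 (0.087) and Stx3 (0.14) with Gm genes in the total, for Stx7 with TMM factors (0.036), Gm genes in the total (0.20) and without that library (0.036), and for Syt11 with the barcode group as a block (−0.17). Without single mice Snap23 ranged from −0.13 to 0.21, Stx3 from −0.18 to 0.056 and Stx7 from −0.31 to 0.19. By the immediate early score it was so for Vamp8 with UMIs (−0.0062), thinned (−0.10) and without that library (−0.0075), Stx3 (0.011) and Rab27b (0.0088) with TMM factors, Stxbp2 thinned (6.0e-04), Unc13d thinned (−0.18) and without cells with other markers (−0.025), and Syt11 by tertiles (−0.093), thinned (−0.12), without that library (−0.083) and without those cells (−0.087). Without single mice the values ran, for Snap23 from −0.13 to 0.033, Vamp8 from −0.073 to 0.064, Stx3 from −0.11 to 0.027, Stxbp2 from −0.15 to 0.0097, Rab27b from −0.11 to 0.00078 and Syt11 from −0.17 to 0.14. By the protease score it was so for Stx3 thinned (−0.11), without that library (−0.0025) and without those cells (−0.13), Stx7 thinned (−0.53) and Stxbp2 with TMM factors (0.023). Without single mice the values ran, for Snap23 from −0.22 to 0.031 and Stxbp2 from −0.12 to 0.034. The MC to Myh11-GFP ratio of Rab27b was 90.5 with Gm genes in the total and 94.6 to 214 without single Myh11-GFP libraries. That of Unc13d, with 1 UMI, was 47.8 with Gm genes in the total and at least 17.3 without the library that holds the UMI.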
